A study of Mus musculus with 8 samples.

Results

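The nuclear genes of respiratory complex I were read as every protein-coding gene of the deposited table whose symbol begins with Nduf. This rule took 48 of the 55681 genes. They comprised 37 genes of complex I subunits, 8 genes of assembly factors (Ndufaf1 to Ndufaf8), Ndufa4 and its paralogue Ndufa4l2, and Ndufb11b, a copy to which no role was given here. The symbol is wider than the enzyme, since the Ndufa4 protein is now counted with complex IV. The libraries hold RNA of entire small intestines, 1 from each of 8 mouse embryos of stage E15.5 on a C57BL6J background, with 4 libraries per group. The controls are labelled Slmapfl/fl, with no Cre given. The other 4 libraries, labelled cKO, carried the same floxed alleles with a Cre transgene that the labels write as Derom-Cre and Dermo-Cre. The series places the role of SLMAP in the mesenchyme, while the RNA is of the whole tissue, epithelium included. The design text gives the purpose as finding what lies behind gut shortening after Slmap deletion. The labels do not say which embryos were littermates.

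Complex I, the NADH:ubiquinone oxidoreductase, is where electrons from NADH enter the respiratory chain. Its matrix arm passes them along a flavin and a row of iron-sulfur clusters to ubiquinone, and its membrane arm moves protons across the inner mitochondrial membrane. The core subunits that carry these reactions come from separate genomes. The nucleus encodes the core of the matrix arm, the mitochondrial DNA encodes the 7 core subunits of the membrane arm, and the nucleus adds a shell of accessory subunits around both. Assembly factors join intermediates of the enzyme and leave before it is complete.

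Reads recovered from the deposited values summed to 15663837 to 17806397 per library. Slmap, the targeted gene, lay at 23.6, 23.3, 25.4 and 24.2 FPKM in controls 1 to 4 and at 25.5, 23.5, 26.5 and 26.3 FPKM in cKO 1 to 4, which overlapped, with a log2 fold change of 0.07 ± 0.07 (± SE; adjusted p by limma 0.57). Slmap was thus not lower in the libraries labelled cKO. Which exons are floxed is not stated in the labels, so this value of the whole gene in whole tissue does not check the deletion, and directions below follow the labels. Gut markers were present in all libraries, with the 6 epithelial markers (Epcam, Vil1 and others) summing to 738 to 1021 FPKM in the controls and 803 to 1107 FPKM in the libraries labelled cKO. The 6 smooth muscle markers summed to 1204 to 1725 and 1079.8 to 1471 FPKM, and 0 of these markers were at 0. These sums overlapped between the groups, but not every single marker did. Of the 33 tested markers of 8 cell types or tissues, 4 were lower and 2 higher at an unadjusted p under 0.05. The shares of all genes were 9.87% and 12.6%. Among these markers 1 lay lower and 2 higher without overlap, against 5.75% and 9.61% of all genes, and limma called 0. The smooth muscle genes Des and Cnn1 had log2 fold changes of -0.49 and -0.32, but Tagln of that list had 0.19. The epithelial Cdh1 had 0.31 and Cdx1 -0.07, and the glial Sox10 had -0.37 and the neuronal Elavl4 0.19. The muscle gene Actc1 had 0.90, while Ckm and Myl1 of that list had -0.34 and -0.29. The groups did not overlap in Des, in Actc1 and in the fibroblast gene Pdgfra, which had 0.13. Without cKO 2, the fit in which members are called below, limma called Des, Cnn1, Cdh1, Sox10 and Actc1. These 5 markers were 3 lower and 2 higher, against 4.15% and 5.57% of all genes. The limma adjusted p was 0.029 for Des, 0.0417 for Cnn1, 0.0428 for Cdh1, 0.0283 for Sox10 and 0.0413 for Actc1. Their part in the results below was not tested. Controls 3 and 4 had reads on 25832 and 25934 genes, against 23883 to 24071 in the other 6 libraries, and on the first principal component cKO 2 lay beyond controls 1 and 2, at the end away from controls 3 and 4. On the second component (23.3% of the variance) the controls lay at 12.4 to 15.8 and cKO 1, 3 and 4 at -15.0 to -24.6. There cKO 2 lay at 6.16, on the side of the controls. Results are therefore also given without controls 3 and 4 and without cKO 2. Dropping cKO 2 leaves out the library labelled cKO that lay nearest to the controls on the second component.

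The upstream sequences of 4 members are shown as examples of genes described below, Ndufb6 and Ndufa1 with values lower and Ndufaf1 and Ndufaf4 with values higher in the libraries labelled cKO. The table of start sites held no entry for Ndufa2, which lay lowest of all members, or for Ndufs1, which lay above Ndufaf4. Each is the 150 bases before the transcription start in RefSeq on the build GRCm38.p6, written 5′ to 3′ on the strand of the gene. Capitals mark letters that match GCGCATGCG, a core bound by NRF1, a factor of nuclear genes for mitochondrial proteins, or CCGGAAG, a core bound by ETS factors, on either strand, and Ndufb6 and Ndufa1 held neither in this stretch. In Ndufaf4 the matches on both strands overlap. The 4 examples do not stand for all members of their direction. Ndufa9, Ndufa10, Ndufab1 and Ndufb5, with fold changes above 0, held neither core in the same stretch, while Ndufs3 held CCGGAAG. Neither core was held by Ndufb8, Ndufb11, Ndufb4, Ndufa3 and Ndufv3, which lay lower.
Ndufb6, chr4:40279422-40279571, minus strand: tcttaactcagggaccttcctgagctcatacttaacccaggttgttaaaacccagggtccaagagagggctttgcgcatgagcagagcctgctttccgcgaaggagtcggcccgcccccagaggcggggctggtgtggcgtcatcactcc
Ndufa1, chrX:37191239-37191388, minus strand: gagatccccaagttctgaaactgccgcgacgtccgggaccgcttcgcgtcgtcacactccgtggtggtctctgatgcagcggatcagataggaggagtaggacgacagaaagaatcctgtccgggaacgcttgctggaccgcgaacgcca
Ndufaf1, chr2:119662835-119662984, minus strand: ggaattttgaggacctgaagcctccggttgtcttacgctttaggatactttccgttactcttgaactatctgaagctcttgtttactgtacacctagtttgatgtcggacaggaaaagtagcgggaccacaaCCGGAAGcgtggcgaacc
Ndufaf4, chr4:24897933-24898082, plus strand: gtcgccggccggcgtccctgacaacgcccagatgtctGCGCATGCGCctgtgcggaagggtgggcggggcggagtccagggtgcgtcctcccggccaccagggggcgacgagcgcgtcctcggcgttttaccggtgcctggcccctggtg

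A start site was found for 41 of the 48 members. In the 250 bases before it, GCGCATGCG was present in 3 members (7.32%), against 1.64% of 27025 genes, and CCGGAAG in 5 (12.2%), against 7.83%. The core GCGCATGCG was shortened by 1 letter after a first result was seen. The longer palindrome searched first, in which matches on both strands overlap, was present in 2 members (4.88%) and 0.877% of genes. AAGATGGCG, a core of YY1 sites, was present in 0 of 41 members and in 0.71% of all genes. The GC box GGGCGG was present in 46.3% and 35.4%, and CCAAT in 34.1% and 37.5%. Of the 16 members with a start site that lay lower at an unadjusted p under 0.05, 3 held CCGGAAG and 0 held GCGCATGCG. Of the other 25 members, 2 held CCGGAAG and 3 held GCGCATGCG. These are matches of letters in a window and not measured binding.

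In FPKM, which divides fragments by the deposited gene length and by library total, 47 members averaged 1 FPKM or more and were tested. That length can exceed the longest coding transcript in GENCODE M21, as in Ndufb7 with 4522 against 623 bases. Levels of different genes therefore compare only roughly, and ranks by level below are ranks of FPKM. The member left out was Ndufb11b, at 0 in every library. The lowest member that was tested, Ndufb2, lay at 1.49, 1.64, 3.55 and 3.71 FPKM in controls 1 to 4 and at 2.06, 2.4, 2.75 and 2.46 FPKM in cKO 1 to 4, and every other tested member had a higher mean. Controls 1 and 2 were its lowest libraries and controls 3 and 4 its highest. Its model overlaps Gm42420 on the same strand, which was at 0 throughout, and reads from such a pair cannot be assigned with certainty. The tested members spanned 2.51 to 136 FPKM in mean, with a median of 30.7 FPKM, and rested on at least 97 reads per library. Their coefficient of variation had a median of 10.7% over the controls and 7.48% over the libraries labelled cKO.

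More members lay lower than higher in the libraries labelled cKO. Of the 47 tested members, 34 had a fold change below 0 on the log2(FPKM + 1) scale and 13 above, and their median was -0.15, against -0.0016 over the 14220 genes tested. The changes ran from -0.81 for Ndufa2 to 0.35 for Ndufaf1. No member passed the threshold: limma with Benjamini-Hochberg adjustment called 0 members lower and 0 higher, against 0.0141% and 0.00% of all genes, and limma-voom on the recovered reads called 0 in either direction. At an unadjusted p under 0.05 limma gave 17 members lower and 3 higher, against 9.87% and 12.6% of all genes. At that p limma-voom gave 16 and 3, beside 1381 and 1822 of all 14220 genes. In 13 members every library labelled cKO lay below every control, against 5.75% of all genes, and in 1 member, Ndufaf1, every one lay above, against 9.61%. Such counts among genes with short and long transcripts are given below. Without control 2 the median over the members was -0.095. With median-ratio, quantile and summed-read scaling 36, 36 and 41 members lay below 0. Their medians were -0.17, -0.19 and -0.21, while those over all genes tested were -0.021, 0.015 and -0.061. Summed-read scaling thus moved all genes downward, members included. In whole tissue, fewer cells of a type and less RNA per cell cannot be told apart.

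**Figure D1:**
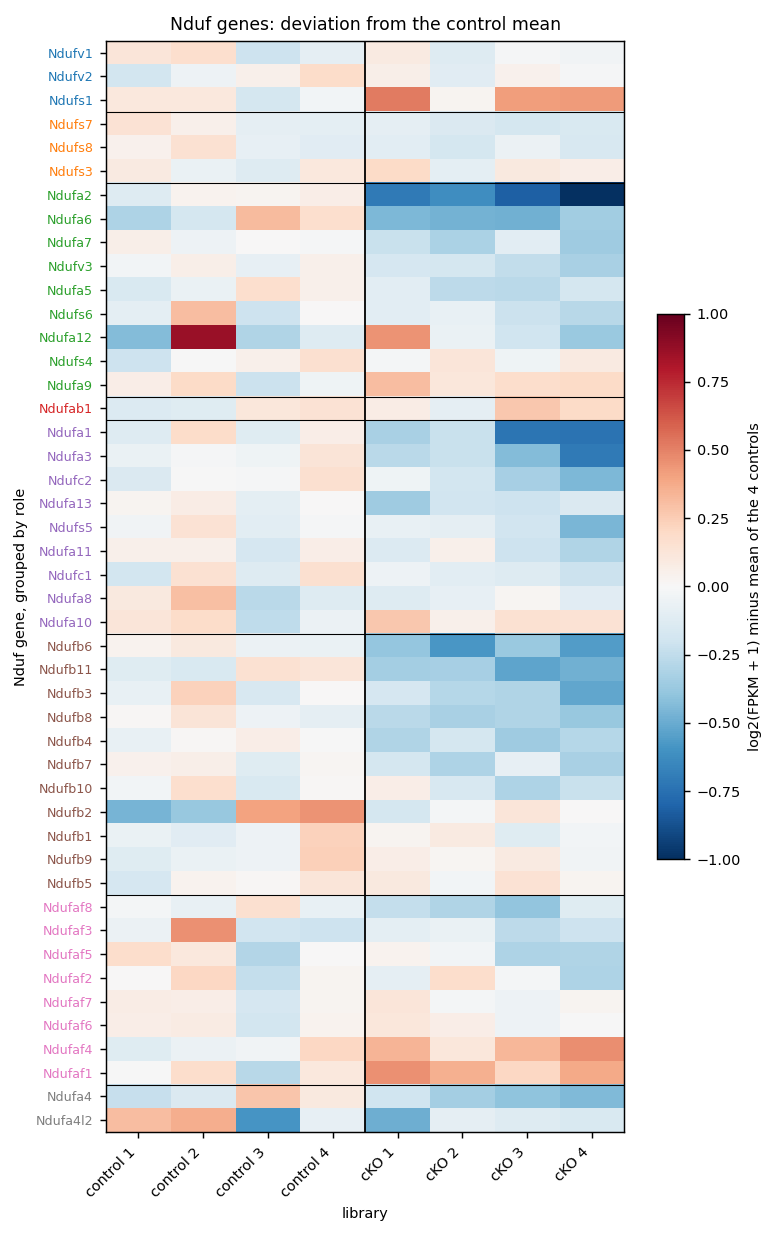
Heat map of log2(FPKM + 1) minus the mean of the 4 controls for the tested Nduf genes reported here (rows, grouped and coloured by role) in each library (columns). Blue rows on the right of the black line, such as Ndufa2, Ndufa1 and Ndufb6, lie in the accessory groups, while Ndufaf1, Ndufaf4 and, outside cKO 2, Ndufs1 are red there.

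Summed over the 48 genes, Nduf transcripts lay at 1786, 1925, 1811 and 1899 FPKM in controls 1 to 4 and at 1731, 1621, 1614 and 1558 FPKM in cKO 1 to 4. The groups did not overlap in this sum, and cKO 1 lay nearest to the controls. As a share of recovered reads, which gives long genes more weight than short ones, they took 0.294% to 0.326% in the controls and 0.274% to 0.292% in the libraries labelled cKO. These sums are given as descriptions of the members.

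Among the core subunits described here, Ndufs1 lay highest and the others nearer to 0. Ndufv2, an iron-sulfur protein next to the flavin and the most abundant of the electron-input group, lay at 64.5, 70.8, 76.1 and 83.2 FPKM in controls 1 to 4 and at 76.4, 67.8, 75.7 and 72.7 FPKM in cKO 1 to 4. These values overlapped almost completely, and the fold lay within 0.858 to 1.16 (95% interval). Ndufv1, which binds NADH and the flavin, lay at 43.9 ± 5.41 and 43.1 ± 2.7 FPKM (mean ± SD of the controls and of the libraries labelled cKO, n = 4 each), with an interval of 0.84 to 1.16. Ndufs1, the large subunit that carries several iron-sulfur clusters, lay at 21.4, 21.4, 17.4 and 19.4 FPKM in controls 1 to 4 and at 28.9, 20.2, 26.9 and 27.1 FPKM in cKO 1 to 4. It was high in cKO 1, 3 and 4, and cKO 2 fell within the range of the controls, which gave a log2 fold change of 0.35 ± 0.12 (± SE; adjusted p by limma 0.146). Without cKO 2 the adjusted p of Ndufs1 was 0.0271 (limma), with a log2 fold change of 0.46. Ndufs1 overlaps Eef1b2, a gene at 201 to 257 FPKM on the opposite strand, and whether reads were counted by strand is not stated.

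At the quinone end, Ndufs3, a subunit of the matrix arm, lay at 43.1, 38.5, 36.9 and 43.6 FPKM in controls 1 to 4 and at 46.3, 37.7, 43.3 and 42.4 FPKM in cKO 1 to 4, which overlapped, with a 95% interval of 0.904 to 1.21 and a sign that turned only with summed-read scaling among the scalings. Ndufs7 and Ndufs8, which hold the last clusters before ubiquinone, lay at 54.9 ± 4.59 and 49.6 ± 1.25 FPKM and at 66.2 ± 5.77 and 60.5 ± 2.19 FPKM respectively. Their log2 fold changes were -0.14 and -0.13 and their intervals 0.80 to 1.03 and 0.804 to 1.05. With the correction for GC content and gene length described below, the sign of Ndufs7 and Ndufs8 turned to above 0. The groups overlapped in each of Ndufs3, Ndufs7, Ndufs8, Ndufv1, Ndufv2 and Ndufs1, and of these Ndufs1 alone had an unadjusted p under 0.05.

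Accessory subunits of the matrix arm included the member that stood furthest from 0. Ndufa2 (ENSMUSG00000014294, chromosome 18, 36875385 to 36877610 on GRCm39), a small thioredoxin-fold subunit at the electron-input end, lay at 89.6, 100.3, 99.8 and 103 FPKM in controls 1 to 4 and at 59.5, 63.2, 55.2 and 45.5 FPKM in cKO 1 to 4. Each library labelled cKO was below each control, the lowest being cKO 4, and the difference was larger than the spread in either group. Its log2 fold change was -0.81 ± 0.11 (± SE; adjusted p by limma 0.0588), a fold of 0.571 with a 95% interval of 0.479 to 0.68. By mean level it was the third of the tested members in the controls and the ninth in the libraries labelled cKO, behind Ndufv2 and Ndufs8 among others, both of which it exceeded in the controls. Its adjusted p was over the threshold of 0.05, and without cKO 2 it was 0.0175 (limma). It overlaps Tmco6 on the opposite strand, a gene at 4.52 to 5.59 FPKM.

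Other members of this group were lower by less. Ndufv3, a small subunit attached to the flavoprotein pair, lay at 16.2, 17.3, 15.7 and 17.3 FPKM in controls 1 to 4 and at 14.7, 14.6, 13.9 and 13 FPKM in cKO 1 to 4. The groups did not overlap, and the log2 fold change was -0.23 ± 0.07 (± SE; adjusted p by limma 0.114). Ndufa7 (log2 fold change -0.25) and Ndufa6 (-0.44), the latter a LYR-motif subunit that holds an acyl carrier protein, also had groups that did not overlap. Ndufa6 lay at 39.7, 43.5, 61.7 and 55.5 FPKM in controls 1 to 4 and at 35.9, 35.2, 35 and 38.6 FPKM in cKO 1 to 4. Controls 3 and 4 were highest, and without these libraries its log2 fold change was -0.20 (limma adjusted p = 0.168). Ndufa5 lay at 52.1 ± 5.08 and 45 ± 2.51 FPKM and Ndufs6, a zinc-binding subunit, at 29.9 ± 4.95 and 26.3 ± 1.75 FPKM, with groups that overlapped in both. Ndufs4, whose loss in mice gives a model of Leigh syndrome, lay at 23.6 ± 2.52 and 24.1 ± 1.39 FPKM and had a 95% interval of 0.887 to 1.19, with a sign above 0 that turned with quantile and summed-read scaling. Ndufa9, a subunit at the joint of the arms, lay at 50.5, 55.3, 41.4 and 46.8 FPKM in controls 1 to 4 and at 60.04, 52.3, 54.5 and 55.1 FPKM in cKO 1 to 4. Control 2 exceeded most libraries labelled cKO, and the log2 fold change was 0.20 ± 0.10 (± SE; adjusted p by limma 0.283), or 0.07 without controls 3 and 4. Ndufa12 varied most among the controls, from 10.4 to 27.1 FPKM, and is taken up again with its pseudogene. Of the 9 genes of the group, 7 lay below 0, 5 of them at an unadjusted p under 0.05 and 4 without overlap, against 9.87% and 5.75% of all genes. With the 3 scalings 7 to 8 lay below 0.

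Ndufab1, the mitochondrial acyl carrier protein that complex I holds in both arms and that also serves fatty acid and iron-sulfur synthesis, lay at 12.3, 12.5, 14.8 and 15.2 FPKM in controls 1 to 4 and at 14.4, 12.8, 16.7 and 15.7 FPKM in cKO 1 to 4. The groups overlapped, with a log2 fold change of 0.11 ± 0.11 (± SE; adjusted p by limma 0.578), and the sign turned with the correction for GC content and gene length.

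Among the accessory subunits of the membrane arm of the A, C and S5 series, 8 of 9 lay below 0, with a median of -0.20 on the log2 scale, under each of the 3 scalings too, but 5 with the correction for GC content and gene length. Ndufa1 (ENSMUSG00000016427, chromosome X, 36451241 to 36454816), an X-linked subunit that is needed for assembly, lay at 34.8, 43.4, 35 and 40.0 FPKM in controls 1 to 4 and at 30.4, 32.5, 22.6 and 22.5 FPKM in cKO 1 to 4. The values of cKO 3 and 4 were far below the rest, and those of cKO 1 and 2 were nearer to controls 1 and 3. Its log2 fold change was -0.50 ± 0.14 (± SE; adjusted p by limma 0.0954). Ndufa3 lay at 33.3, 34.6, 34 and 38.3 FPKM in controls 1 to 4 and at 28.8, 29.9, 25.7 and 21.1 FPKM in cKO 1 to 4, without overlap and lowest in cKO 4, with a log2 fold change of -0.41 ± 0.11 (± SE; adjusted p by limma 0.0954). Ndufa13, which is also known as a cell death regulator, lay at 39.5 ± 2.03 and 33.7 ± 2.13 FPKM and likewise did not overlap. Ndufc2 and Ndufs5 lay at 70.4 ± 6.3 and 59.1 ± 7.39 FPKM and at 55.3 ± 4.13 and 48.1 ± 5.67 FPKM, with overlap in both. Ndufa8, the most abundant of this group over all 8 libraries though below Ndufc2 in the controls, and a cysteine-rich subunit on the intermembrane side, lay at 72.2, 83.5, 55.6 and 61.7 FPKM in controls 1 to 4 and at 61.6, 63.6, 68.5 and 62.2 FPKM in cKO 1 to 4. The controls alone spanned a wider range than the other group, with a 95% interval of 0.779 to 1.16 for the fold. Ndufa11 and Ndufc1 had log2 fold changes of -0.15 and -0.13. The exception above 0 was Ndufa10, a relative of nucleoside kinases, at 46.2, 48.2, 35.4 and 40.7 FPKM in controls 1 to 4 and at 51.3, 43.9, 47.2 and 47 FPKM in cKO 1 to 4. Controls 3 and 4 were its lowest libraries, and without them its log2 fold change was 0.00, against 0.16 with all 8.

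The B series of the membrane arm, which surrounds its distal end, had 9 of 11 members below 0, or 9 to 11 under the 3 scalings and 7 with the correction by coding transcript or without controls 3 and 4, and a median of -0.22. Ndufb6 (ENSMUSG00000071014, chromosome 4, 40270591 to 40279421), whose upstream sequence is shown above, lay at 66, 68.9, 61.9 and 61.5 FPKM in controls 1 to 4 and at 49.2, 42.7, 49.8 and 43.4 FPKM in cKO 1 to 4. The gap between the groups was wider than the range within either, and the log2 fold change was -0.47 ± 0.08 (± SE; adjusted p by limma 0.0758). Ndufb8 (ENSMUSG00000025204, chromosome 19, 44537011 to 44543879), a subunit whose protein is widely used as a marker of assembled complex I, lay at 17.1, 18.6, 16.3 and 15.8 FPKM in controls 1 to 4 and at 13.8, 13.3, 13.6 and 12.8 FPKM in cKO 1 to 4. It varied little within the libraries labelled cKO, and its log2 fold change was -0.32 ± 0.07 (± SE; adjusted p by limma 0.0782). Ndufb11 (ENSMUSG00000031059, chromosome X, 20481565 to 20483858), the other X-linked subunit and the most abundant of the series, lay at 100.2, 98.4, 122 and 119 FPKM in controls 1 to 4 and at 86, 86.7, 75.7 and 77.8 FPKM in cKO 1 to 4. Controls 3 and 4 were its highest libraries, and controls 1 and 2 still exceeded every library labelled cKO. Its log2 fold change was -0.42 ± 0.10 (± SE; adjusted p by limma 0.080), or -0.28 without controls 3 and 4. Ndufb4 lay at 19.7, 21.1, 21.9 and 20.9 FPKM in controls 1 to 4 and at 16.8, 18.4, 16.1 and 16.9 FPKM in cKO 1 to 4, again without overlap, with a log2 fold change of -0.28 ± 0.07 (± SE; adjusted p by limma 0.0822).

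The rest of the B series was less separated. Ndufb3 lay at 38.6 ± 4.71 and 30.7 ± 3.16 FPKM without overlap, and Ndufb7, a cysteine-rich subunit, at 14.2 ± 0.846 and 12 ± 1.06 FPKM with overlap. Ndufb10 had a log2 fold change of -0.16. Ndufb5, at 18, 20.8, 20.5 and 22.2 FPKM in controls 1 to 4 and at 21.8, 19.9, 22.6 and 20.7 FPKM in cKO 1 to 4, differed by less than the spread within the controls. Ndufb9, a LYR-motif subunit at the far end of the arm, and Ndufb1 had 95% intervals of 0.886 to 1.19 and 0.856 to 1.16. In all, 6 of the 11 had an unadjusted p under 0.05, all of them lower, and 5 had groups that did not overlap, against 9.87% and 5.75% of all genes.

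**Figure D2:**
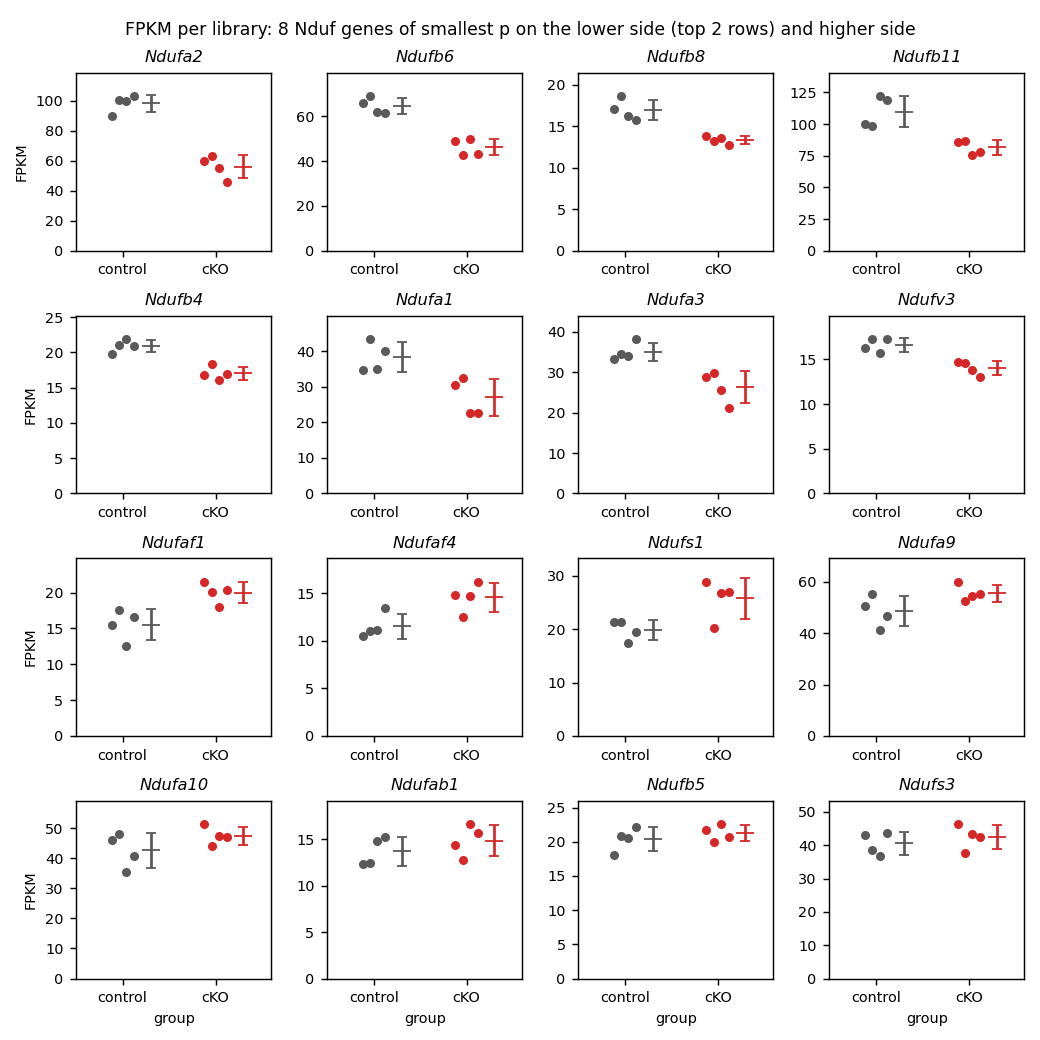
FPKM in each library (dots) with mean and SD (bar) for the 8 Nduf genes of smallest p on the lower side (top rows) and the 8 on the higher side (bottom rows), controls in grey and libraries labelled cKO in red. The groups are apart in the 8 genes of the top rows and, below, in Ndufaf1 alone.

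Assembly factors were split, with 4 of 8 below 0 and 4 above, or 6 below with summed-read scaling. Ndufaf1, which works in the membrane-arm assembly complex with Ecsit, Acad9 and Tmem126b, lay at 15.4, 17.5, 12.6 and 16.7 FPKM in controls 1 to 4 and at 21.5, 20.1, 18 and 20.4 FPKM in cKO 1 to 4. All 4 libraries labelled cKO were above all controls, with the least distance between cKO 3 and control 2, and the log2 fold change was 0.35 ± 0.11 (± SE; adjusted p by limma 0.116). Ndufaf4, which acts with Ndufaf3 on an early intermediate, lay at 10.5, 11, 11.2 and 13.4 FPKM in controls 1 to 4 and at 14.8, 12.5, 14.7 and 16.2 FPKM in cKO 1 to 4. Control 4 exceeded cKO 2, so the groups overlapped, and the log2 fold change was 0.31 ± 0.10 (± SE; adjusted p by limma 0.128). Without cKO 2 the adjusted p of Ndufaf4 was 0.0446 (limma). Its partner Ndufaf3 lay at 6.98 ± 1.88 and 6.03 ± 0.452 FPKM and overlaps the more abundant gene Impdh2 on the opposite strand. Ndufaf8, a partner of the arginine hydroxylase Ndufaf5, lay lower without overlap at 17.9 ± 1.48 and 14.7 ± 1.24 FPKM. Ndufaf5 itself lay at 8.73 ± 1.32 and 7.76 ± 1.1 FPKM. Ndufaf2, a paralogue of the subunit Ndufa12 that it precedes in assembly, lay at 4.83 ± 0.722 and 4.59 ± 0.772 FPKM. Ndufaf6 and the arginine methyltransferase Ndufaf7 had log2 fold changes of 0.03 and 0.02, whose signs turned with summed-read scaling, and for Ndufaf7 with median-ratio scaling too.

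Complex I assembly factors named outside the Nduf series were described from a list of 13, of which 12 were in the table and tested. They stood 6 below and 6 above 0 with a median log2 fold change of -0.02, and limma called 0 of them. An unadjusted p under 0.05 was found for 1 on the higher side and 0 on the lower, against 12.6% and 9.87% of all genes. With median-ratio and summed-read scaling 8 lay below 0. The gene past that p was Acad9, an acyl-CoA dehydrogenase that works with Ndufaf1, at 5.75 ± 0.553 and 6.85 ± 0.643 FPKM. The other partners of Ndufaf1 lay at 11.2 ± 1.02 and 10.4 ± 0.628 FPKM for Ecsit and at 7.78 ± 0.765 and 7.82 ± 0.67 FPKM for Tmem126b. Without cKO 2, limma called Tmem70 of this list higher (adjusted p 0.0386), against 5.57% of all genes.

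The 2 genes of the series that are not of complex I both lay below 0. Ndufa4, a subunit of complex IV and the most abundant Nduf transcript in both groups, lay at 129, 137, 184 and 162 FPKM in controls 1 to 4 and at 132, 119.7, 114 and 111 FPKM in cKO 1 to 4. Controls 3 and 4 were highest and cKO 1 exceeded control 1, and the log2 fold change was -0.35 ± 0.12 (± SE; adjusted p by limma 0.156), or -0.16 without controls 3 and 4. Its paralogue Ndufa4l2, a gene known to be induced in hypoxia, lay at 10.5, 10.9, 5.18 and 7.76 FPKM in controls 1 to 4 and at 5.61, 7.74, 7.47 and 7.35 FPKM in cKO 1 to 4. Control 3 was its lowest library, and the groups overlapped.

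**Figure D3:**
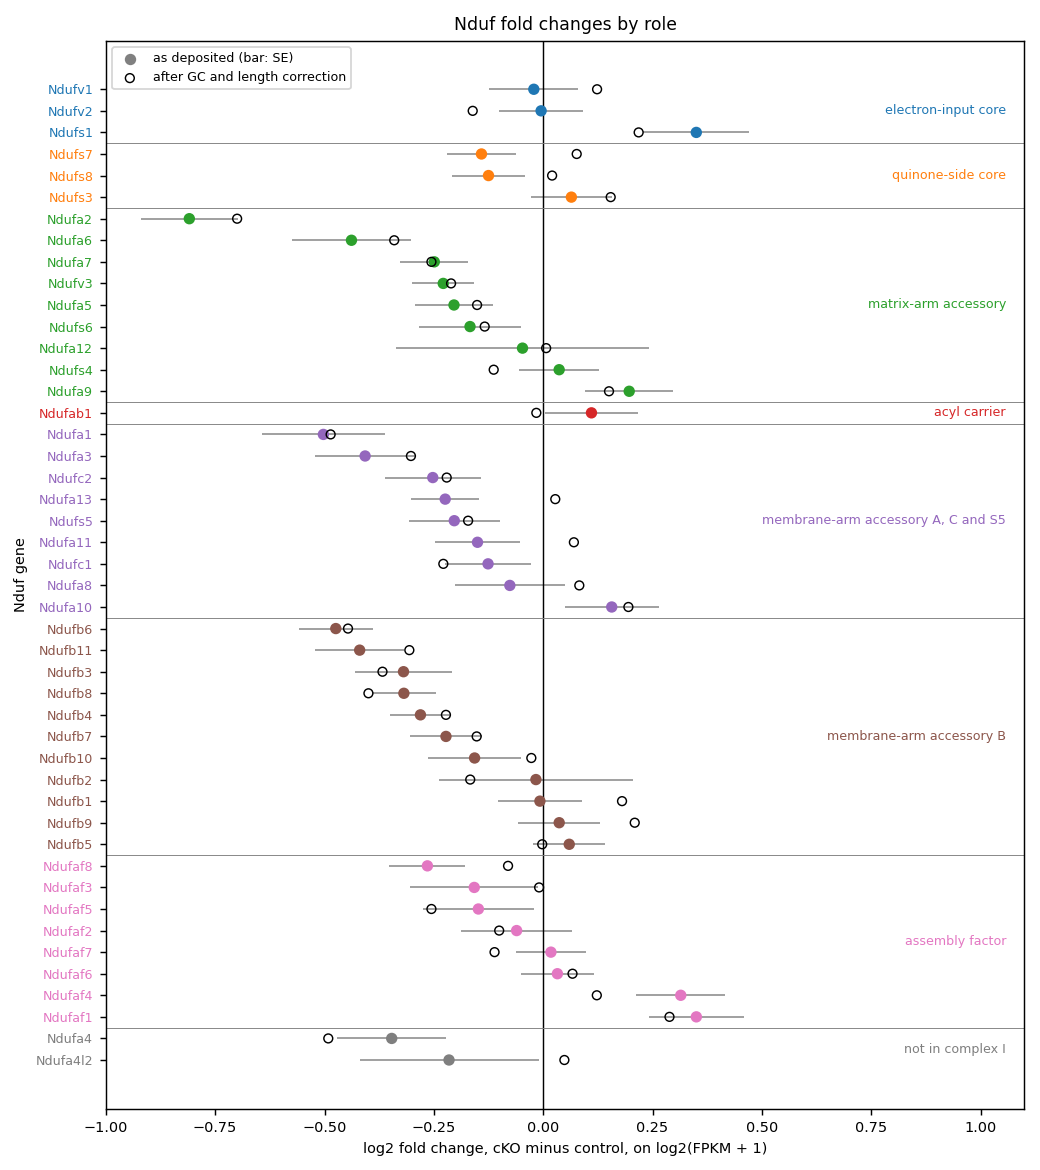
Log2 fold change of each tested Nduf gene reported here, libraries labelled cKO minus controls, with its SE (filled, coloured by role) and after the GC content and gene length of each gene were corrected for in each library (open circles). The accessory groups lie mostly left of 0, from -0.81 for Ndufa2, and the core groups lie around 0 except Ndufs1 at 0.35.

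The direction of a member went with the length of its transcript. For the 46 tested members with a coding transcript in GENCODE M21, Spearman's rho between the length of the longest one and the log2 fold change was 0.68, as a description across genes that share the same 8 libraries. Over 12271 tested genes it was 0.24. A limit of 1000 bases, chosen after the values were seen, divides the members evenly. Below it, 22 of 23 members lay below 0 with a median log2 fold change of -0.25, and from it upward 11 of 23 with a median of 0.01. Among all tested protein-coding genes, members included, 503 of 654 short ones lay below 0 (median -0.17) and 5477 of 11594 long ones (median 0.02). Of the 23 short members, 14 were lower at an unadjusted p under 0.05 and 10 without overlap, beside 171 and 101 of the 654 short genes. Of the 23 long members, 3 were lower at that p and 3 without overlap, beside 1069 and 657 of the 11594 long genes. Ndufa1 has a longest coding transcript of 419 bases, Ndufa2 of 572 and Ndufb6 of 659, while Ndufs1 has 2661 and Ndufaf4 3632. Ndufb8, at 2142 bases, and Ndufv3, at 1582, lay lower without being short.

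**Figure D4:**
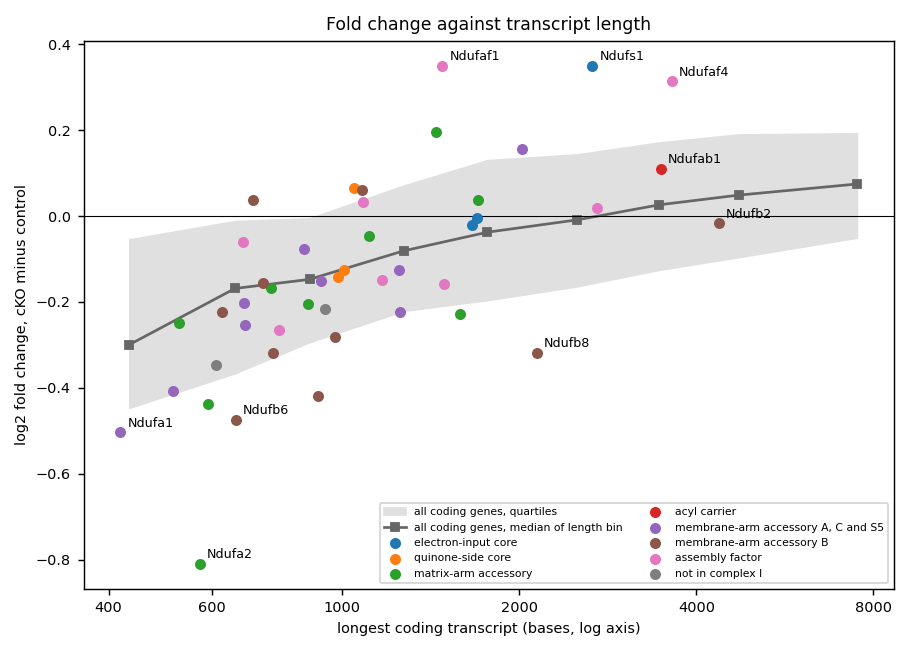
Log2 fold change, libraries labelled cKO minus controls, against the longest coding transcript (log axis) for the Nduf genes reported here (dots, by role), over the median (squares) and quartiles (grey) of all tested coding genes in bins of length. The grey median climbs from -0.30 in the shortest bin to 0.07 in the longest, and Ndufa2, Ndufb6, Ndufb8 and Ndufa1 lie under the lower quartile of their length.

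A correction of each library for GC content and the deposited gene length left 29 members below 0 and a median of -0.10. After it, Spearman's rho with the longest coding transcript was 0.48 in the members and 0.06 over all tested genes. The relation with length was thus not removed in the members. This correction gave 14 members lower and 1 higher at an unadjusted p under 0.05, against 6.04% and 5.63% of all genes, and limma called 0 members, against 0.00703% and 0.00%. With the length of the longest coding transcript in place of the gene length, 27 lay below 0, 11 and 2 had an unadjusted p under 0.05, against 5.97% and 5.55%, 0 were called, against 0.0141% in each direction, and the median was -0.05. Under that second correction Ndufa2 had a log2 fold change of -0.68, Ndufb6 of -0.43, Ndufa1 of -0.47 and Ndufb8 of -0.40, with limma adjusted p of 0.094, 0.237, 0.389 and 0.20. Ndufa3 had -0.26 and Ndufb4 -0.18, against -0.41 and -0.28 as deposited. Ndufa13 moved to 0.02 and Ndufaf4 to 0.11, while Ndufaf1 stood at 0.28. What lies behind the relation with length was not tested.

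Which members passed the threshold depended on single libraries. Without cKO 2, limma called 7 members lower, against 4.15% of all genes, namely Ndufa1, Ndufa2, Ndufa3, Ndufb4, Ndufb6, Ndufb8 and Ndufb11, and 2 higher, against 5.57%, namely Ndufaf4 and Ndufs1. Array quality weights, whose estimation gave a convergence warning and which counted cKO 2 least, gave the same genes with Ndufa13 and Ndufv3 added on the lower side, or 9 and 2 against 7.24% and 8.30%. With all 8 kept, a term that set the libraries numbered 1 and 2 apart from those numbered 3 and 4 called 7 lower and 0 higher, against 3.40% and 4.32%, with Ndufa6 in and Ndufa3 out on the lower side. Without controls 3 and 4, limma called 0 members lower and 0 higher, against 0.0141% and 0.00703%, and 18 were lower and 3 higher at an unadjusted p under 0.05, against 13.9% and 12.6%. The median over the members was then -0.20, against -0.15 without cKO 2. For the X-linked Ndufa1 and Ndufb11, a term for sex read from Xist (over 10 FPKM in 2 controls and 3 of the libraries labelled cKO) gave log2 fold changes of -0.57 and -0.42, with 0 members called.

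The 7 core subunits encoded by the mitochondrial genome all lay above 0, with a median of 0.53 on the log2 scale, or 0.27 with quantile normalization, and in 5 of them every library labelled cKO exceeded every control, against 9.61% of all genes. None passed the threshold (limma, 0 called, 5 on the higher side at an unadjusted p under 0.05, against 12.6% of all genes). Without cKO 2, limma called mt-Nd2, mt-Nd4, mt-Nd5 and mt-Nd6 higher, against 5.57% of all genes, and the median was 0.64. Their limma adjusted p was 0.0218, 0.0178, 0.0181 and 0.0237, and mt-Nd1, mt-Nd3 and mt-Nd4l were not called. mt-Nd4, a proton-pumping subunit of the distal membrane arm, lay at 903, 899.6, 965 and 984 FPKM in controls 1 to 4 and at 1517, 1149, 1411 and 1652 FPKM in cKO 1 to 4, and cKO 2 was the nearest to the controls. Its log2 fold change was 0.60 ± 0.13 (± SE; adjusted p by limma 0.0773). Summed, the 7 genes lay at 8163, 7882, 9132 and 9211 FPKM in controls 1 to 4 and at 13293, 10403, 11927 and 13446 FPKM in cKO 1 to 4. The groups overlapped neither in this sum nor in that of the Nduf genes. These sums differed in opposite directions, so their ratio could not overlap and adds no separate observation. The ratio of the mt-Nd sum to the Nduf sum was 4.09 to 5.04 in the controls and 6.42 to 8.63 in the libraries labelled cKO.

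**Figure D5:**
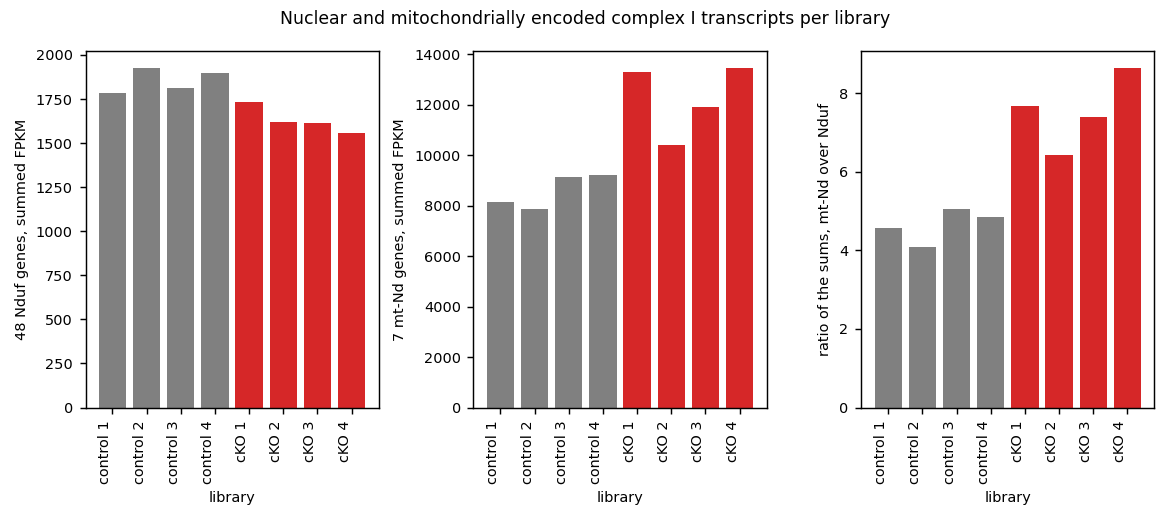
Summed FPKM of the 48 Nduf genes, summed FPKM of the 7 mitochondrially encoded mt-Nd genes and the ratio of the sums, 1 bar per library, controls in grey and libraries labelled cKO in red. The nuclear sum is lower and the mitochondrial sum higher in all 4 red bars. The ratio therefore cannot overlap, and is at most 5.04 in grey and at least 6.42 in red.

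Of 11 other nuclear genes, listed for mitochondrial content, 10 lay above 0, or 9, 8 and 7 with median-ratio, quantile and summed-read scaling. Their median was 0.21 on the log2 scale, or 0.04 without controls 3 and 4, with 4 of them higher at an unadjusted p under 0.05, against 12.6% of all genes, and 0 called by limma. Without cKO 2, all 11 lay above 0 with a median of 0.22. In that fit limma called Vdac2 of this list higher (adjusted p 0.0409), against 5.57% of all genes. Tfam, which packages and transcribes the mitochondrial genome, lay at 18.3, 19.4, 14.4 and 17.6 FPKM in controls 1 to 4 and at 21.9, 21.7, 22.6 and 22.5 FPKM in cKO 1 to 4, without overlap. Its log2 fold change was 0.34 ± 0.09 (± SE; adjusted p by limma 0.0949). The chaperonin gene Hspd1 lay at 348 ± 92.6 and 492 ± 16.4 FPKM and the outer membrane channel gene Vdac3 at 25.7 ± 2.26 and 30.1 ± 0.235 FPKM, both without overlap. In all, 3 of the 11 lay higher without overlap, against 9.61% of all genes. The import receptor Tomm20 lay at 41.9 ± 0.356 and 42.1 ± 1.62 FPKM, which overlapped. After the correction for GC content and gene length the median of this list was 0.03, while that of the mitochondrially encoded subunits was 0.39. With that correction the log2 fold change of Vdac3 was 0.03, against 0.22 as deposited, and Tfam and Hspd1 had 0.21 and 0.46.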

How the data were processed

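A single table from the authors held deposited FPKM values (fragments relative to the length of the gene and the size of the library) for 55681 genes in 8 libraries, with symbols, positions and gene lengths, and a further 3 lines were blank in the copy used. Per the submitters' processing notes, CASAVA, fastp, HISAT2, featureCounts, DESeq2 1.20.0 and the build GRCm39 were used, with no roles or settings given. TRIzol extraction and a NEBNext Ultra library kit were used, per the labels' protocols. How the deposited gene lengths were made is not stated.

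FPKM multiplied by length and divided by the lowest such value of the library gave whole reads (tolerance 0.01) for 100% of values above 0. The totals implied by the FPKM were 0.969 to 1.09 times the summed reads, so the deposited values carry a scaling that the labels do not describe. limma 3.58.1 in R 4.3.3 with an intensity trend was fitted to log2(FPKM + 1) for 14220 genes that averaged 1 FPKM or more, 2-sided, with Benjamini-Hochberg adjustment over all of them and a threshold of 0.05. Fold changes are on that scale and understate changes of low genes. Non-overlap means that every value of a group lies beyond every value of the other. GC content and transcript length came from GENCODE M21, matched by gene identifier (GC content for 98.4% of tested genes), and the correction was a smooth term per library (mgcv). The code was tested on simulated reads. The p-values refer to the spread among embryos of unstated litters. The members, lists, roles and the rule for named genes (the 8 of smallest p per direction, the most abundant of each role, and those nearest the filter) were chosen with earlier results of these data known, and any other gene was named after its values were seen. A member that the rule names is not reported here, though sums and counts over all members include it.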

Additional observations from a re-analysis of the deposited data

How the results depend on the processing

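The median log2 fold change over the tested members stayed below 0 under all 26 alternatives, between -0.21 and -0.05, against -0.15. Without control 2 it was -0.095. The value nearest 0, -0.049, came with the correction by coding transcript. Calls moved more. Limma called 0 members in the fit reported, and 1 lower (Ndufa2) with a filter of 5 FPKM or median-ratio scaling, 2 lower (Ndufa2, Ndufb6) with quantile or summed-read scaling, 9 lower and 2 higher with array weights and 7 lower with the number term. Leaving out a single library gave 0 to 7 members lower and 0 to 2 higher, the upper ends without cKO 2. Over all genes the fit called 2 lower and 0 higher. It called 23 lower and 22 higher with the filter of 5 FPKM, 19 lower and 12 higher with median-ratio scaling, 20 lower and 14 higher with quantile normalization, 23 lower and 5 higher with summed-read scaling, 1029 lower and 1180 higher with array weights and 484 lower and 615 higher with the number term. It called 1 lower and 0 higher with the GC and length correction, 2 lower and 2 higher with that by coding transcript, 2 lower and 1 higher without controls 3 and 4, and 1 lower and 0 higher among protein-coding genes only. It called 0 and 0 with pseudocounts of 0.1 and 5, no filter, limma-voom, the sex term and the replicate block with or without the correction. Leaving out single libraries gave 0 to 590 lower and 0 to 792 higher. At an unadjusted p under 0.05 all genes split into 1403 lower and 1790 higher, but 2208 and 1184 with summed-read scaling. The cause of these shifts was not tested. The replicate block gave 14 members lower and 3 higher at an unadjusted p under 0.05, beside 1673 and 1797 of all 14220 genes. The deviations of same-numbered libraries correlated at 0.07, 0.33, 0.15 and 0.21, not all over 0.1, and control 1 correlated best with cKO 2, so the numbers were not taken as pairs. The deviations did divide by number, since libraries numbered 1 and 2 correlated with each other across groups, as did those numbered 3 and 4, at 0.07 to 0.39, and across this division at -0.36 to -0.06. Fits without controls 3 and 4, with the number term, with sex and with coding transcript length were chosen after the data were seen. The tested members had at least 97 reads per library.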

Other observations

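The table also lists processed pseudogenes named after members, and reads of a gene and a near-identical copy cannot be assigned with certainty. Ndufa12, a matrix-arm subunit beside the electron-input end, lay at 10.4, 27.1, 11.6 and 13.1 FPKM in controls 1 to 4 and at 20.1, 13.8, 12.4 and 11 FPKM in cKO 1 to 4, the widest spread of any tested member in the controls relative to its mean (49.9%). Its copy Ndufa12-ps lay at 63, 35.2, 55.7 and 53.6 FPKM in controls 1 to 4 and at 49.6, 55.7, 50.3 and 47.9 FPKM in cKO 1 to 4. Control 2 and cKO 1 were the highest libraries for the gene and control 2 the lowest for the copy. In recovered reads the gene took 75% of the reads of the pair in control 2 and 61.3% in cKO 1, against 39.3% to 49.1% in the other 6 libraries. The pair summed to 630 to 905 reads per library.

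Ndufab1-ps lay at 46.5, 42.5, 48.7 and 44.7 FPKM in controls 1 to 4 and at 44, 34.8, 27.6 and 31.9 FPKM in cKO 1 to 4. By the deposited lengths its FPKM was above that of Ndufab1 in every library. The deposited length of Ndufab1 is 6883 bases, against 3479 for its longest coding transcript, so this order may depend on the length used. The copy was lowest in cKO 3 and 4, and its log2 fold change was -0.41 ± 0.13 (± SE; adjusted p by limma 0.129). The gene took 79.6% to 83.4% of the reads of this pair in the controls and 82.8% to 89.9% in the libraries labelled cKO, which overlapped. Ndufb4c, Ndufs6b and Ndufs5-ps had mean levels of 3.96, 2.59 and 1.44 FPKM, against 19, 28.1 and 51.7 FPKM for the genes of the same name.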
